A study of Mus musculus with 2 samples.

Results

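The BTG and TOB antiproliferative genes Btg1, Btg2, Btg3, Tob1 and Tob2 are 5 of the 21938 nuclear protein-coding genes annotated on the mouse genome, and they were examined for TRα1 binding in brown adipocytes, TRα1 being a receptor of thyroid hormone. The family was chosen by measured values, since Tob2 is among the genes with most TRα1 binding sites (TRBS), so the counts at Tob2 are given as a description and not as a finding. A TRBS is a peak of the ChIP-seq signal over its input, and it was attributed to a gene when its summit, where most fragments overlap, lay within 30 kb or within 100 kb of the transcription start site (TSS), the 5′ end of the gene in the GENCODE annotation of GRCm38. Of the 5107 TRBS in the list, 10 lay within 30 kb of a member and 19 within 100 kb.

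The mice were adult C57BL/6J males of 8 to 12 weeks, whose brown adipose tissue was collected and in which a GS-tagged TRa1 was expressed in brown adipocytes only. All mice received food containing propylthiouracil (PTU), which blocks thyroid hormone synthesis, for 2 weeks and were then injected with thyroid hormone during 24 h. There was 1 ChIP library, precipitated with an antibody against TRα per the labels, and 1 input library of the chromatin before precipitation, so every value below is without a replicate and no difference was tested. Both libraries share the tagged receptor, the PTU food and the hormone, and tissue without hormone was not analysed here.

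A list of peaks holds no expression, so the cell type could not be checked by RNA levels. Of the 5 genes taken as markers of brown adipocytes, all had a TRBS within 30 kb, against 16.7% of all protein-coding genes, which does not identify the cell type. Ucp1, the uncoupling protein of thermogenesis, had 5, Cidea 3, Pparg 2, Adipoq 1 and Fabp4 1. The depth is known from the peaks only: the number of ChIP fragments at the summit of a TRBS was worked out from its deposited fold and p-value, and its median over all TRBS was 17 fragments with quartiles of 11 and 27. Intervals given with fragment numbers are exact 95% Poisson intervals and cover counting error only.

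Proteins of the BTG and TOB family share a conserved amino-terminal domain that binds the deadenylases Cnot7 and Cnot8 of the CCR4-NOT complex, which shortens the poly(A) tails of messenger RNAs. Tob1 and Tob2 also bind the cytoplasmic poly(A)-binding protein through their carboxy-terminal part, and forced expression of family members slows cell proliferation. Thyroid hormone receptors bind chromatin with and without hormone, mostly as heterodimers with RXR, and their best known element is the DR4, a direct repeat of the half-site AGGTCA with a spacer of 4 bases.

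The DR4 elements inside the TRBS near members are shown because they are the sequences by which the receptor is best known to bind. They were sought as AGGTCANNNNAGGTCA on both strands over the whole TRBS, allowing at most 2 mismatches over the 12 half-site bases, and a match is a description of the letters. Capitals mark the 2 half-sites, each sequence is written 5′ to 3′ on the strand of the element, and positions are on GRCm38. The TRBS at 83.9 kb downstream of Tob2 held 2 DR4 elements, of which 1 is printed.
Tob1, 72.7 kb upstream, chr11:94138825-94138854, plus strand: gcgcgcaAGGTCAggccAGGCCGcctgggc
Tob2, 83.9 kb downstream, chr15:81774919-81774948, plus strand: gcagaggAGTTCAttgcAGGCCAacctccc
Tob2, 48 kb downstream, chr15:81810758-81810787, minus strand: ccgcgcgAGGTTAgcggAGGGCAggcgggt
Tob2, 24.4 kb downstream, chr15:81834576-81834605, plus strand: ctgtctaGGGTCAaaagGGGTCAccagtca
Tob2, 91.6 kb upstream, chr15:81950314-81950343, plus strand: taaccagAGGATAagtgAGGTCAcaggctc
Each of the 5 elements had exactly 2 mismatches. The Tob1 element kept an intact AGGTCA in the first half-site and carried both mismatches in the second, and the element upstream of Tob2 had the reverse arrangement. In the other 3 elements, each half-site carried 1 mismatch.

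Within 100 kb of Tob2, the most strongly occupied TRBS was the one 83.9 kb downstream, with 61 fragments and 2 DR4 elements. The most strongly occupied TRBS within 100 kb of Tob1 and the most strongly occupied within 30 kb of Tob2 held no DR4, so the 300 bases around their summits are shown for comparison. They are written on the plus strand, and capitals mark each exact half-site AGGTCA or GGGTCA on either strand.
Tob1, 48 kb upstream, chr11:94163257-94163556: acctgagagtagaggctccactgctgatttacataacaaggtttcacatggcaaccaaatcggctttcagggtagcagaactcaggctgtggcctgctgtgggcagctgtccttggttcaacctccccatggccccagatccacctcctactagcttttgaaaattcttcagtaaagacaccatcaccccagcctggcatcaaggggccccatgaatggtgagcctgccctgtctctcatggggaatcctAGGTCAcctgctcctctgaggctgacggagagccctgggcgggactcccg
Tob2, 19.8 kb downstream, chr15:81838829-81839128: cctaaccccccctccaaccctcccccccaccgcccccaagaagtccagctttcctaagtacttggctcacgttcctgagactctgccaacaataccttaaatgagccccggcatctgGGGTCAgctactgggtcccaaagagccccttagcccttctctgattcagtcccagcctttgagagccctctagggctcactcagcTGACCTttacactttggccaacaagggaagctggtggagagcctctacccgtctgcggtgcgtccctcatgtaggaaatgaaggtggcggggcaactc
The Tob1 window held 1 half-site and the Tob2 window held 2, of which 1 was on each strand.

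The question was how TRBS are distributed over the family. Within 30 kb of the TSS, Tob2 had 7 TRBS, Tob1 had 3, and Btg1, Btg2 and Btg3 had 0. Over all protein-coding genes, 3659 of 21938 (16.7%) had at least 1 TRBS within 30 kb, 1.75% had at least 3 and 0.0729% (16 genes) had at least 7. The 0 counts of the Btg genes are therefore those of most genes, since 83.3% of protein-coding genes had no TRBS within 30 kb. Btg4, the remaining family member, which is known from oocytes, also had 0.

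Within 100 kb, the counts were 11 at Tob2, 7 at Tob1, 1 at Btg3 and 0 at Btg1 and Btg2. Here 38.3% of protein-coding genes had at least 1 TRBS, 0.802% had at least 7 and 24 genes (0.109%) had at least the 11 of Tob2. Within 10 kb only Tob1 had a TRBS, 1 in number, and Tob2 had none. The counts within 50 kb were 8 at Tob2 and 5 at Tob1, so Tob2 led the family at 30, 50 and 100 kb but not at 10 kb.

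**Figure D1:**
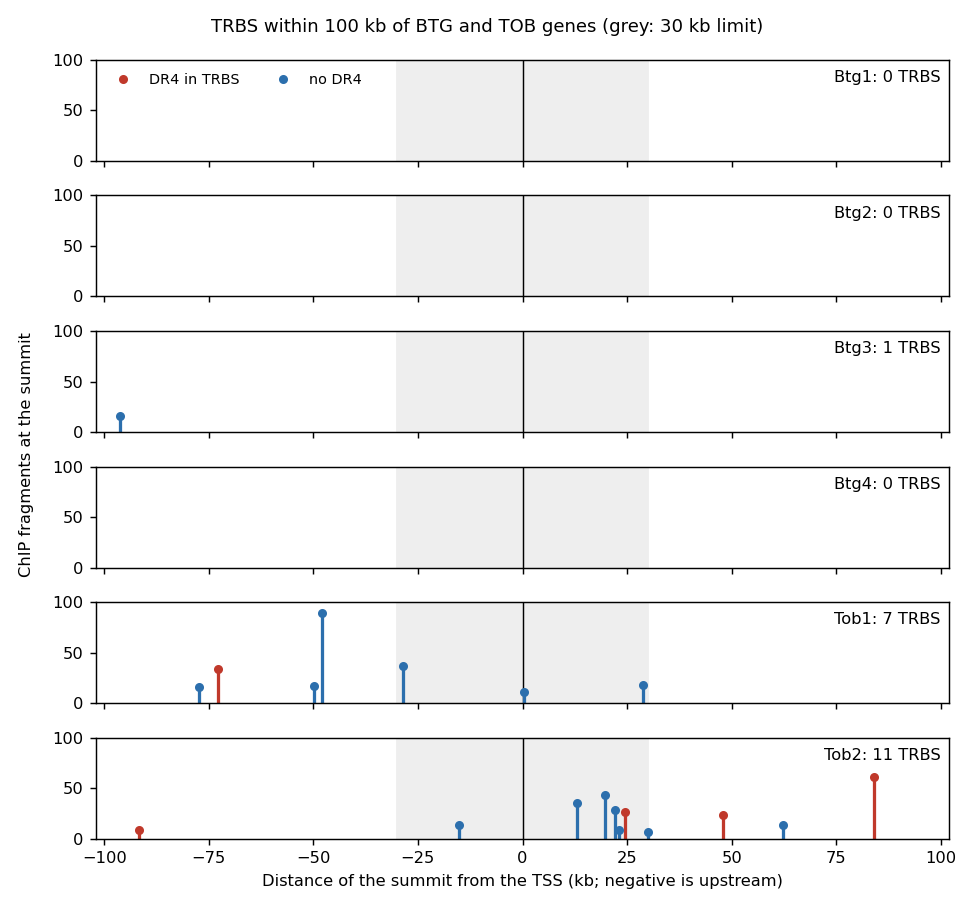
TRBS within 100 kb of the TSS of each member and of Btg4, by distance from the TSS in kb (upstream to the left). The height of each stem gives the ChIP fragments at the summit, red where the TRBS holds a DR4 and blue where it does not. Tob2 shows 11 TRBS, 7 of them within 30 kb, Tob1 shows 7 of which 5 are upstream, Btg3 shows 1 and the other rows are empty.

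Of the 16 genes with at least 7 TRBS within 30 kb, 9 were predicted genes at 1 repeat locus of chromosome 9. The other 7 lay at 3 loci. Atp5d and Cbarp had 8 each and Cirbp and Midn had 7 each on chromosome 10, and Hr, which encodes a nuclear receptor corepressor, and its neighbour Nudt18 had 7 each on chromosome 14. Tob2 was the only gene of its locus with at least 7 when counted from the 5′ end of each gene. By contrast, 2661 genes had exactly 1.

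**Figure D2:**
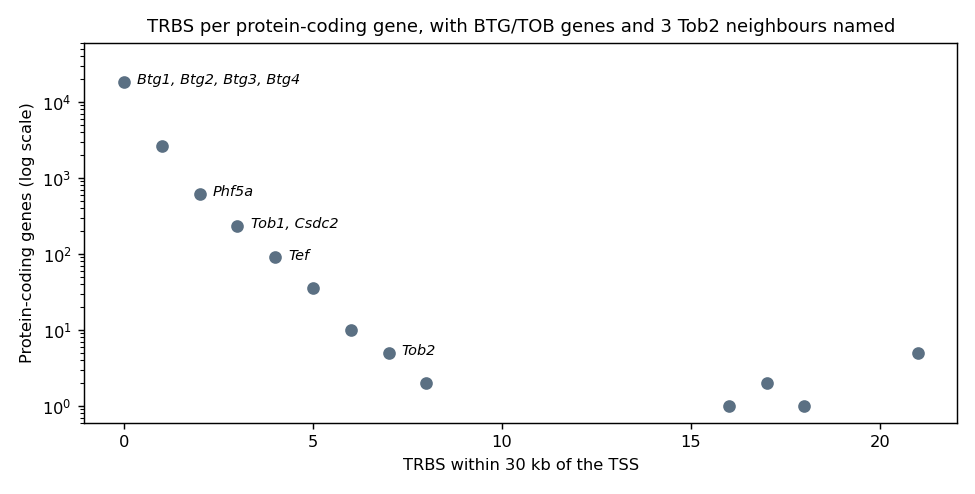
Number of protein-coding genes (log scale) by number of TRBS within 30 kb of the TSS, each point being all genes with that number, with BTG and TOB genes and 3 neighbours of Tob2 named. Btg1, Btg2, Btg3 and Btg4 stand among the genes with 0, Tob1 with 3 and Tob2 among the 5 genes with 7, and the points from 16 up are the predicted genes of the chromosome 9 repeat locus.

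Tob2 (ENSMUSG00000048546.8) lies on the minus strand of chromosome 15 at 81848272-81858796. None of its 11 TRBS was in its promoter or in its gene body. Of its 7 TRBS within 30 kb, 6 followed the gene in the space before the next gene, Tef, which is transcribed toward Tob2 so that the 3′ ends of the genes face each other. Tef encodes a PAR bZIP transcription factor whose expression follows the circadian clock. The space between the genes measured 21408 bp (chr15:81826864-81848271), and the 6 summits spanned 17.0 kb of it, from 1992 bp beyond the Tef 3′ end to 2462 bp from the Tob2 3′ end.

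The strongest of these 6 TRBS lay 19.8 kb downstream of the TSS at chr15:81838343-81840229, with 43 fragments at the summit (31.1 to 57.9) and a deposited fold of 28.2 over input. It was 1887 bp wide, against a median width of 424 bp over all TRBS, and 91.3% of TRBS had a lower score. The TRBS nearest to the Tob2 3′ end, 13 kb downstream at chr15:81845563-81846039, had 35 fragments (24.4 to 48.7) and a fold of 14.3. These intervals overlap, so the 2 TRBS cannot be ordered by their fragments at this depth.

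Further from Tob2, the TRBS at 22.2 kb (chr15:81836397-81837268) had 28 fragments (18.6 to 40.5) and the TRBS at 24.4 kb (chr15:81834125-81834725) had 26 (17.0 to 38.1). Between them, the TRBS at 23.1 kb (chr15:81835409-81835785) had 9 (4.12 to 17.1), and the TRBS nearest to Tef, at 29.9 kb (chr15:81828676-81828957), had 7 (2.81 to 14.4). The row of 6 was thus uneven, with 4 TRBS above the median of 17 fragments and 2 below it. The latter 2 had scores of 55 and 40, under the value of 60 that the study's methods used to filter peaks. In sum, 148 fragments were counted at the 6 summits, and the TRBS covered 21.0% of the space between Tef and Tob2. Steps between neighbouring summits ran from 963 to 6831 bp with a median of 2363 bp. Only the TRBS at 24.4 kb held a DR4, the GGGTCAaaagGGGTCA element printed above, and this element lay 214.5 bp from the summit. The TRBS at 13 kb held no exact half-site on either strand.

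The last of the 7 TRBS within 30 kb lay upstream of Tob2, at 15.2 kb, with 14 fragments (7.65 to 23.5) and a fold of 6.18. It was the only one of the 7 on that side of the TSS.

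Between 30 and 100 kb from Tob2 there were 4 more TRBS. The most occupied was 83.9 kb downstream in an intron of Zc3h7b, an RNA-binding zinc finger gene, at chr15:81774425-81775164. It had 61 fragments (46.7 to 78.4) and a fold of 43.4, it ranked 178 of 5107 by score, and it held 2 DR4 elements. A TRBS 48 kb downstream, in an intron of Tef at chr15:81810287-81811025, had 24 fragments (15.4 to 35.7) and a DR4 only 3.5 bp from its summit. The others had few fragments. A TRBS 62.2 kb downstream, between Zc3h7b and Tef at chr15:81796370-81796793, had 14 (7.65 to 23.5), and a TRBS 91.6 kb upstream, in the 3′ UTR of the cold-shock domain gene Csdc2 at chr15:81950222-81950589, had 9 (4.12 to 17.1). The next TRBS beyond 100 kb was 102.4 kb upstream at Pmm1, a phosphomannomutase gene, with 23 fragments.

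**Figure D3:**
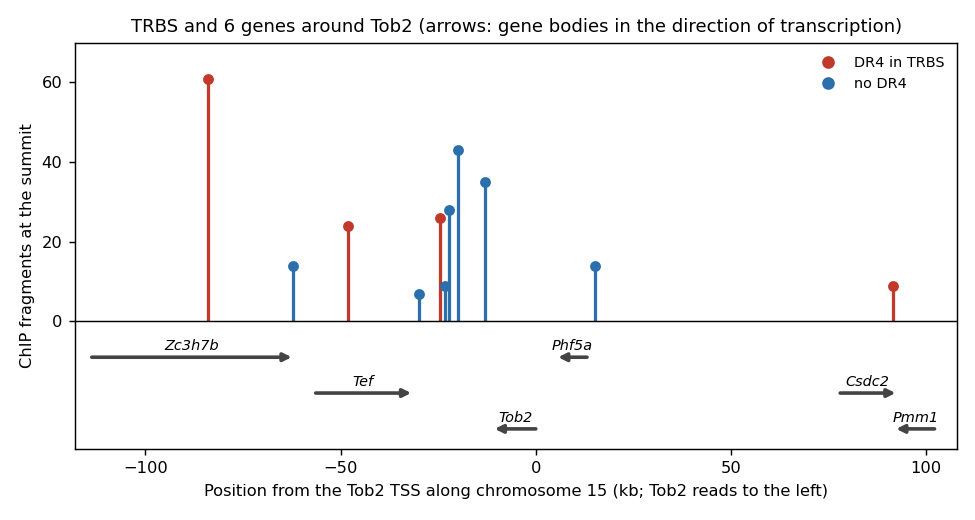
TRBS around Tob2 by distance from its TSS along chromosome 15 (kb) and ChIP fragments at the summit, red where the TRBS holds a DR4 and blue where it does not, with 6 gene bodies as arrows in the direction of transcription. The 6 TRBS between the facing ends of Tef and Tob2 carry 7 to 43 fragments, and the highest stem, 61 fragments, lies inside Zc3h7b.

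The neighbours of Tob2 share its TRBS, so their counts are not independent of it. Of the neighbours with a TSS within 100 kb of the Tob2 TSS, 3 are described. Tef had 4 TRBS within 30 kb, Csdc2 had 3 and Phf5a, a subunit of the SF3b splicing complex, had 2. Each had at least 1, and 83.3% of all genes had none. The locus was chosen for the TRBS of Tob2, so this is a description and not a finding about the neighbours. Of the 7 TRBS of Tob2, 1 was also within 30 kb of Tef and 2 were within 30 kb of Phf5a, whose TSS lies 13115 bp from that of Tob2. No TRBS was shared with Csdc2 at this limit. At 100 kb, by contrast, Phf5a had 13 TRBS, Tob2 11 and Tef and Csdc2 10 each, so Tob2 did not lead its neighbourhood there.

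Assignment to the nearest TSS divided the 11 TRBS near Tob2 differently. Tob2 was the nearest protein-coding gene of 5 and Tef of 4, and Pmm1 was the nearest of 1. The strongest TRBS within 30 kb of Tef was the one inside Zc3h7b, with 61 fragments, against 43 for Tob2. Tef also has transcripts that start inside the gene. Counted within 30 kb of any annotated Tef transcript start, Tef had 9 TRBS, above the 7 of Tob2, whose 4 transcript starts each gave 7. The transcript starts of Tef at positions 81811046 to 81812159 gave 7 each, and those at 81820593 and 81820943 gave 8 each. Which gene the 6 TRBS act on was not tested.

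Tob1 (ENSMUSG00000037573.5) lies on the plus strand of chromosome 11 at 94211454-94215495, and it was the only member with a TRBS at its own start. This TRBS was in the Tob1 intron, 292 bp downstream of the TSS at chr11:94211565-94211951, with 11 fragments (5.49 to 19.7) and a fold of 6.83. It had 77.8% GC, the highest of the 19 TRBS near members, and neither a DR4 nor an exact half-site. Its score of 70 exceeded that of only 23.4% of all TRBS.

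In contrast with Tob2, 5 of the 7 TRBS of Tob1 were upstream of the gene, within the 85.4 kb between Spag9 and Tob1. The most occupied of all TRBS near members was among them, 48 kb upstream at chr11:94162319-94163810, with 89 fragments (71.5 to 109.5) and a fold of 47.0. It ranked 94 of 5107 by score, which placed 98.1% of TRBS below it, and it was 1492 bp wide. A weaker TRBS with 17 fragments (9.90 to 27.2) lay 1896 bp further upstream, at chr11:94161322-94161689. The intervals of these neighbours do not overlap.

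The second and the third of the Tob1 TRBS by fragments had nearly the same fragment numbers, but folds of 26.6 and 18.3 over input. The TRBS 28.5 kb upstream (chr11:94182637-94183562) had 37 fragments (26.1 to 51.0), and the TRBS 72.7 kb upstream (chr11:94138464-94139069) had 34 (23.5 to 47.5) and held the AGGTCAggccAGGCCG element. Of these, the TRBS at 28.5 kb was the only TRBS near a member with the EBF motif TCCCNNGGGA. This motif was in 5.26% of the TRBS near members and in 4.54% of all TRBS, which is close. The TRBS at 77.3 kb upstream (chr11:94133460-94134990) had 16 fragments (9.15 to 26.0) and, like the one at 72.7 kb, overlapped the noncoding gene B230206L02Rik. Downstream of Tob1, a TRBS at 28.8 kb (chr11:94239654-94240418) had 18 fragments (10.7 to 28.4) and lay in an intron of Wfikkn2, 5790 bp from the TSS of that gene. After these 7, no other TRBS was found until 337.8 kb from the Tob1 TSS.

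The only TRBS within 100 kb of Btg3 (ENSMUSG00000022863.15, chr16:78332637-78377192, minus strand) was intergenic, 96.3 kb upstream at chr16:78473250-78473761, with 16 fragments (9.15 to 26.0) and a fold of 10.6. It held an exact half-site and no DR4, and it lay just inside the 100 kb limit. A TRBS just outside this limit, 102.1 kb downstream at chr16:78274897-78275356, had 24 fragments and was nearest to Cxadr, the coxsackievirus and adenovirus receptor gene. The count of 1 at Btg3 therefore depends on where the limit is set.

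Btg1 (ENSMUSG00000036478.8, chr10:96617006-96622809, plus strand) and Btg2 (ENSMUSG00000020423.6, chr1:134075170-134079120, minus strand) had their nearest TRBS at 123.2 kb upstream with 10 fragments and at 125.0 kb upstream with 14 fragments. The TRBS of Btg2 was nearest to Mybph, a myosin-binding protein gene, and that of Btg1 had Btg1 as its nearest gene, which has no other protein-coding TSS within 100 kb. Btg1 and Btg2 are known as genes of growth arrest in other cells. For Btg4 (ENSMUSG00000032056.10, chr9:51060901-51119875, plus strand), the nearest TRBS was 162.3 kb upstream.

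The TRBS near members were of ordinary strength as a set. Their fragments at the summit ranged from 7 to 89 with a median of 18, against a median of 17 over all TRBS, and 7 of the 19 were above the upper quartile of 27. The median fold was 10.6 near members and 9.83 over all TRBS. Their input background lay between 0.43 and 1.52 fragments with a median of 0.756. Over all TRBS the median was 0.672, the upper quartile 0.924 and the highest value 1754. The upper quartile of the TRBS within 30 kb of Tob2 was 1.48, above that of all TRBS. TRBS near members were wider, with a median of 601 bp against 424 bp. Since Tob1 and Tob2 hold 18 of the 19 TRBS, these values describe 2 loci. Summed over their summits within 100 kb, Tob2 had 270 fragments at 11 TRBS and Tob1 had 222 at 7.

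**Figure D4:**
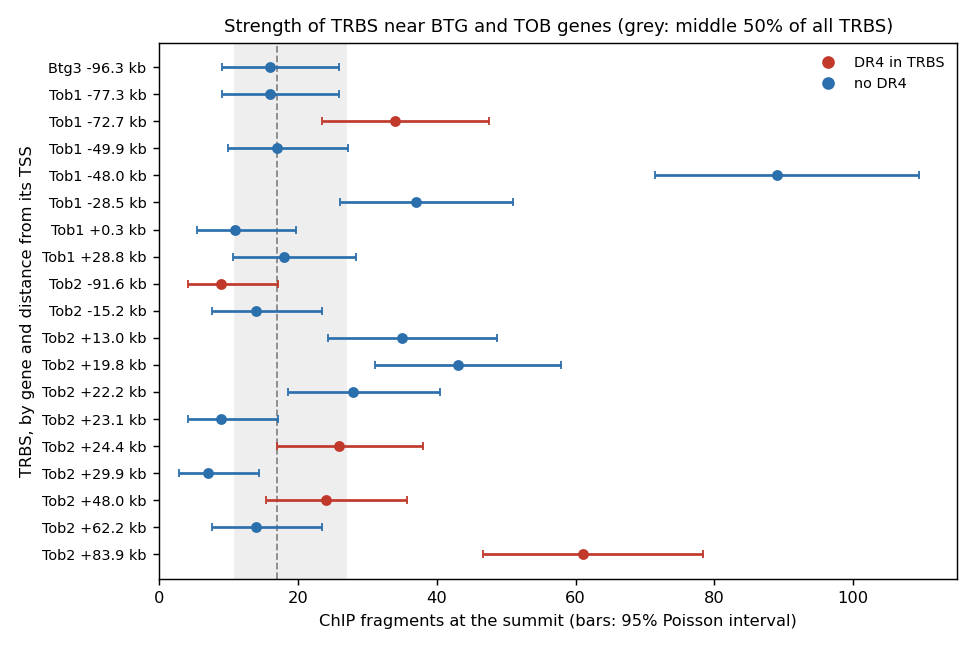
ChIP fragments at the summit of each of the 19 TRBS near members with exact 95% Poisson intervals, beside the median (17) and quartiles (11 and 27) of all TRBS. The highest are the Tob1 TRBS with 89 fragments and the Tob2 TRBS with 61, and the lowest is the Tob2 TRBS with 7.

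A DR4 was present in 5 of the 19 TRBS near members (26.3%, 95% Wilson interval 11.8 to 48.8), against 1633 of all 5107 TRBS (32.0%, 30.7 to 33.3). The share lies near that of all TRBS, and the interval around it is wide. Among the TRBS within 30 kb, 1 of 10 held a DR4 (10%, 1.79 to 40.4). By gene, a DR4 was present within 100 kb in 4 of 11 TRBS at Tob2 and 1 of 7 at Tob1. With at most 1 mismatch the count fell to 0 of 19, against 7.23% of all TRBS.

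Other motifs were sought in the same way on both strands. The DR1, AGGTCANAGGTCA with the same 2 mismatches, which is known from PPAR and RXR heterodimers, was found in 6 of 19 TRBS (31.6%, 15.4 to 54.0) against 14.9% of all TRBS. In windows of 100 bp each side of the summit these shares were 15.8% and 8.64%. An exact half-site was found in 17 of 19 (89.5%, 68.6 to 97.1) against 72.5% of all TRBS over the whole TRBS, but in 57.9% against 58.8% in the summit windows. The width of the TRBS near members moves with the first of these half-site values, and its part in them was not tested. The C/EBP motif TTGCGCAA with at most 1 mismatch was found in 10.5% against 12.0%, at the TRBS 28.8 kb downstream of Tob1 and 19.8 kb downstream of Tob2. In the summit windows it was found in 0 of 19 (0 to 16.8%), against 6.64% of all TRBS.

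The number of DR4 elements in the surrounding DNA was more even over the family than the number of TRBS. Within 100 kb on each side of the TSS, with at most 2 mismatches, there were 33 elements at Tob2, 28 at Tob1, 26 at Btg2, 21 at Btg3 and Btg4 and 18 at Btg1. Of these, 5 at Tob2 and 1 at Tob1 lay inside a TRBS, and none did at the Btg genes. The closer matches with at most 1 mismatch, 3 at Tob1, 2 at Btg2, 1 at Btg3, 1 at Btg4 and 0 at Btg1 and Tob2, were all outside TRBS. The GC content of these stretches went from 41.5% at Btg4 to 49.4% at Tob2, with 42.8% at Btg1 and 43.0% at Btg3. It was 47.3% at Tob1 and 47.8% at Btg2. The part of GC content in these counts was not tested.

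The partners of the family and the genes of cell cycle exit were examined beside it. Of 20 genes of deadenylation, 4 had a TRBS within 30 kb (20%, against 16.7% of all genes) and 6 within 100 kb (30%, against 38.3%), and none had more than 1 within 30 kb. Neither Cnot7 nor Cnot8, the deadenylases bound by BTG and TOB proteins, had a TRBS within 100 kb, and no other Cnot gene had one within 30 kb. The 4 genes were Zfp36l2, an AU-rich element binding protein, with a TRBS of 26 fragments 655 bp upstream of its TSS, Pabpc4, a poly(A)-binding protein, with 16 fragments, Pan2, a deadenylase subunit, with 12, and Tnks1bp1, a CCR4-NOT associated protein, with 11.

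Of 24 genes of cell cycle exit and the G1 phase, 8 had a TRBS within 30 kb (33.3%, against 16.7% of all genes) and 10 within 100 kb (41.7%, against 38.3%, which is close). More than 1 within 30 kb was found at 5 of the 24, and at 4.55% of all genes. Cyclin D1 (Ccnd1), which drives passage through G1, had 3, the strongest with 70 fragments and a DR4 at 12047 bp downstream of the TSS. The growth arrest genes Gadd45a and Gadd45g had 3 each and Gadd45b had 1. The strongest of Gadd45a had 24 fragments at 68 bp from its TSS, and that of Gadd45g had 64. Among inhibitors of cyclin-dependent kinases, Cdkn2c had 2 TRBS with up to 64 fragments, Cdkn1a had 2 with up to 17 and Cdkn1c had 1 with 13. Cdk2 had 1 with 7 fragments. Tob2 with 7 TRBS thus had more than any gene of both lists, whose highest count was 3, and Tob1 with 3 equalled that count. Tob2 was chosen for its number of TRBS, and the lists were chosen with earlier results of these data known, so these counts are a description.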

How the data were processed

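TRα1 ChIP-seq of mouse brown adipose tissue was analysed from the deposited peak list of 1 ChIP library called against 1 input library. Per the submitters' processing notes, the authors used Bowtie2 2.3.2.2 and MACS2 2.1.1.20160309.6, and coordinates are on GRCm38 (mm10). The authors' score of a peak is 10 times the −log10 q-value, rounded down. The deposited fold is the ratio of ChIP pileup to input background at the summit, each with a pseudocount of 1, and the deposited −log10 p-value comes from the Poisson test of that pileup. The study's methods removed scores under 60, but 897 of 5107 listed peaks had such scores, and all peaks were kept here.

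Whole ChIP fragments at the summit were recovered from fold and p-value within 0.0005 of −log10 p for 5090 peaks (99.7%), among them all 19 near members, which had 1 solution each. The recovery and the search for DR4 elements were tested on simulated data, and the counting of TRBS per gene was not. Starts were read as counted from 0 and are given counted from 1. Genes were the GENCODE vM21 annotation, with 1 TSS a gene, and sequences were read from the GRCm38.p6 RefSeq genome. Python 3.11.15, pandas 2.3.3, scipy 1.17.1 and matplotlib 3.10.9 were used.

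The members, the gene lists and the motifs were chosen with earlier results of these data known. The genes named were the members, Btg4, genes with a TSS within 100 kb of that of Tob2, the nearest gene of each TRBS within 100 kb of a member, and genes of the lists with a TRBS within 30 kb. Some of these genes are not reported here. The genes with at least 7 TRBS and genes overlapping a TRBS or bounding a space were named after their values were seen. Without replicates no test was made. Alternatives were other distance limits, score thresholds, start sites and mismatch numbers.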

Additional observations from a re-analysis of the deposited data

How the results depend on the processing

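Of 105 recomputed values, 77 stayed close to the reported value (a count within 1.5 times it, a share within its 95% interval) and 28 moved further. Setting the limit to 10 kb gave 1 TRBS at Tob1 and 0 at Tob2, 50 kb gave 5 at Tob1, and 100 kb gave 1 at Btg3, 7 at Tob1 and 11 at Tob2. Scores of at least 60, or merging neighbouring peaks, left 5 TRBS within 30 kb of Tob2. Scores of at least 100 left 4 of its 7 TRBS within 30 kb and 7 of its 11 within 100 kb. Counting from any transcript start gave Btg3 2 TRBS within 100 kb. The share of genes with a TRBS within 30 kb, 16.7%, became 38.3% at 100 kb, 14.1% at scores of at least 60 and 19.6% with any transcript start. The DR4 share near members was 0 with at most 1 mismatch and 68.4% with at most 3, against 7.23% and 72.5% of all TRBS. TSS from RefSeq, added after seeing the data, changed no member's count. With 1 ChIP library, no replicate could be left out, and counting intervals do not cover variation between animals. A list of peaks does not show weaker binding, so a count of 0 means no listed peak. No paired analysis was possible because there was 1 ChIP library and 1 input library.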

Other observations

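The space between Tef and Tob2 was set beside the other spaces between neighbouring protein-coding genes, after its TRBS had been seen. Of 19067 such spaces, 1427 (7.48%) held a TRBS. Of all lengths, 32 spaces held at least 6 TRBS, 8 of them between facing 3′ ends. Among spaces of at most 30 kb, a limit that the seen space fits, that between Tef and Tob2 was the only one with at least 6 TRBS. The next were that of 17417 bp between Tbc1d9 and Ucp1 with 5, which was slightly denser (2.87 TRBS per 10 kb against 2.80), and those between Cish and Hemk1 and between G6pc and Gm27029 with 4 each. When spaces up to 50 kb were allowed, a choice made after seeing the data, 2 held at least 6. Spaces between facing 3′ ends held a TRBS in 6.08% of 4147, spaces between diverging genes in 9.48% of 4430, and spaces between genes on the same strand in 7.20% of 10490. Per megabase these came to 1.36, 1.40 and 1.32 TRBS.

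Counted without regard to genes, 20 of 5002 runs of 6 consecutive TRBS on a chromosome spanned no more than the 16955 bp of the run between Tef and Tob2, and the median span was 1348 kb. With every input background at most 10 fragments, 4 runs remained, of which 2 overlapping runs lay on chromosome 10 at the Atp5d and Cbarp locus and 1 on chromosome 19. These are descriptions of 1 library.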
